A study of Eisenia fetida with 6 samples.

Results

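Among the 55641 contigs assembled from the intestine of the earthworm Eisenia fetida, 27 lay in 11 assembly clusters in which 1 contig was much more abundant after exposure to tri-n-butyl phosphate (TnBP) while another contig of the same cluster was much less abundant. A contig is an assembled transcript sequence, and contigs that carry the same CL number were taken as 1 cluster, although no source used here defines the number. The members were chosen from the measured values. Expected counts were divided by a size factor per library to give a normalized count, and clusters of 2 to 7 contigs were searched, 3261 clusters with 7606 contigs out of 3639 clusters in all. A raised contig had a mean normalized count at least 4-fold higher in TnBP than in control libraries, and a lowered contig one at least 4-fold lower. Both also needed a mean of 50 or more in the higher group, no overlap between the groups and a mean share of control counts under 0.1%. Clusters holding both kinds were kept, which gave 15 raised and 12 lowered members, and 8 further contigs of these clusters met neither set of conditions. Since the difference between TnBP and control chose the members, it is described below and no test of it is given.

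The TnBP group was exposed to 10 mg/kg of TnBP, an organophosphate solvent that also serves in plastics and as a fire-retarding additive, and the control group was labelled only as a control. Adult worms bearing a clitellum were held in artificial soil for 14 days, and each group gave 3 libraries, each from the pooled intestines of 3 worms. Whether the worms of different pools shared a container is not stated, so the spread between libraries is one between pools of worms, and no strain or genotype is given. The TnBP libraries held 9494666 to 9643939 expected counts and the control libraries 8435554 to 9099412, and the size factors were 1.31 to 1.43 in TnBP and 0.708 to 0.796 in control libraries. In bulk tissue, fewer cells of a type and less RNA per cell cannot be told apart. The identifiers carry no gene names, so no function is given for a member and the labelled tissue could not be checked against marker genes.

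Earthworm intestine digests and absorbs organic matter from ingested soil and is lined on its outer side by chloragogenous tissue, which stores reserves and handles waste and foreign compounds. A gene can give several transcripts through alternative start sites, splicing or end sites, and a worm can carry differing copies of a gene on its chromosomes or in duplicated loci. An assembler without a reference genome collects such similar sequences into clusters, and a cluster can therefore hold splice forms, alleles or close gene copies. A read that matches several contigs of a cluster is divided between them by expectation maximization in RSEM, a program named in the submitters' processing notes. Values of single contigs are for this reason less certain than the sum of their cluster.

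Opposed contigs were a small fraction of the contigs that passed the limits. In clusters of 2 to 7 contigs, 421 contigs met the conditions for raised, which is 5.54% of 7606, and 198 met those for lowered, or 2.6%. Raised contigs occurred in 325 clusters and lowered contigs in 165, and 11 clusters held both. Over all 55641 contigs the shares were 1.66% raised and 1.49% lowered. The members together took 0.0560% to 0.0592% of the counts of a TnBP library and 0.0316% to 0.0346% of those of a control library. The mean normalized count of the raised members in TnBP libraries ran from 56.2 to 2049, with a median of 109. The mean of the lowered members in control libraries ran from 50.7 to 1204, with a median of 167.

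**Figure D1:**
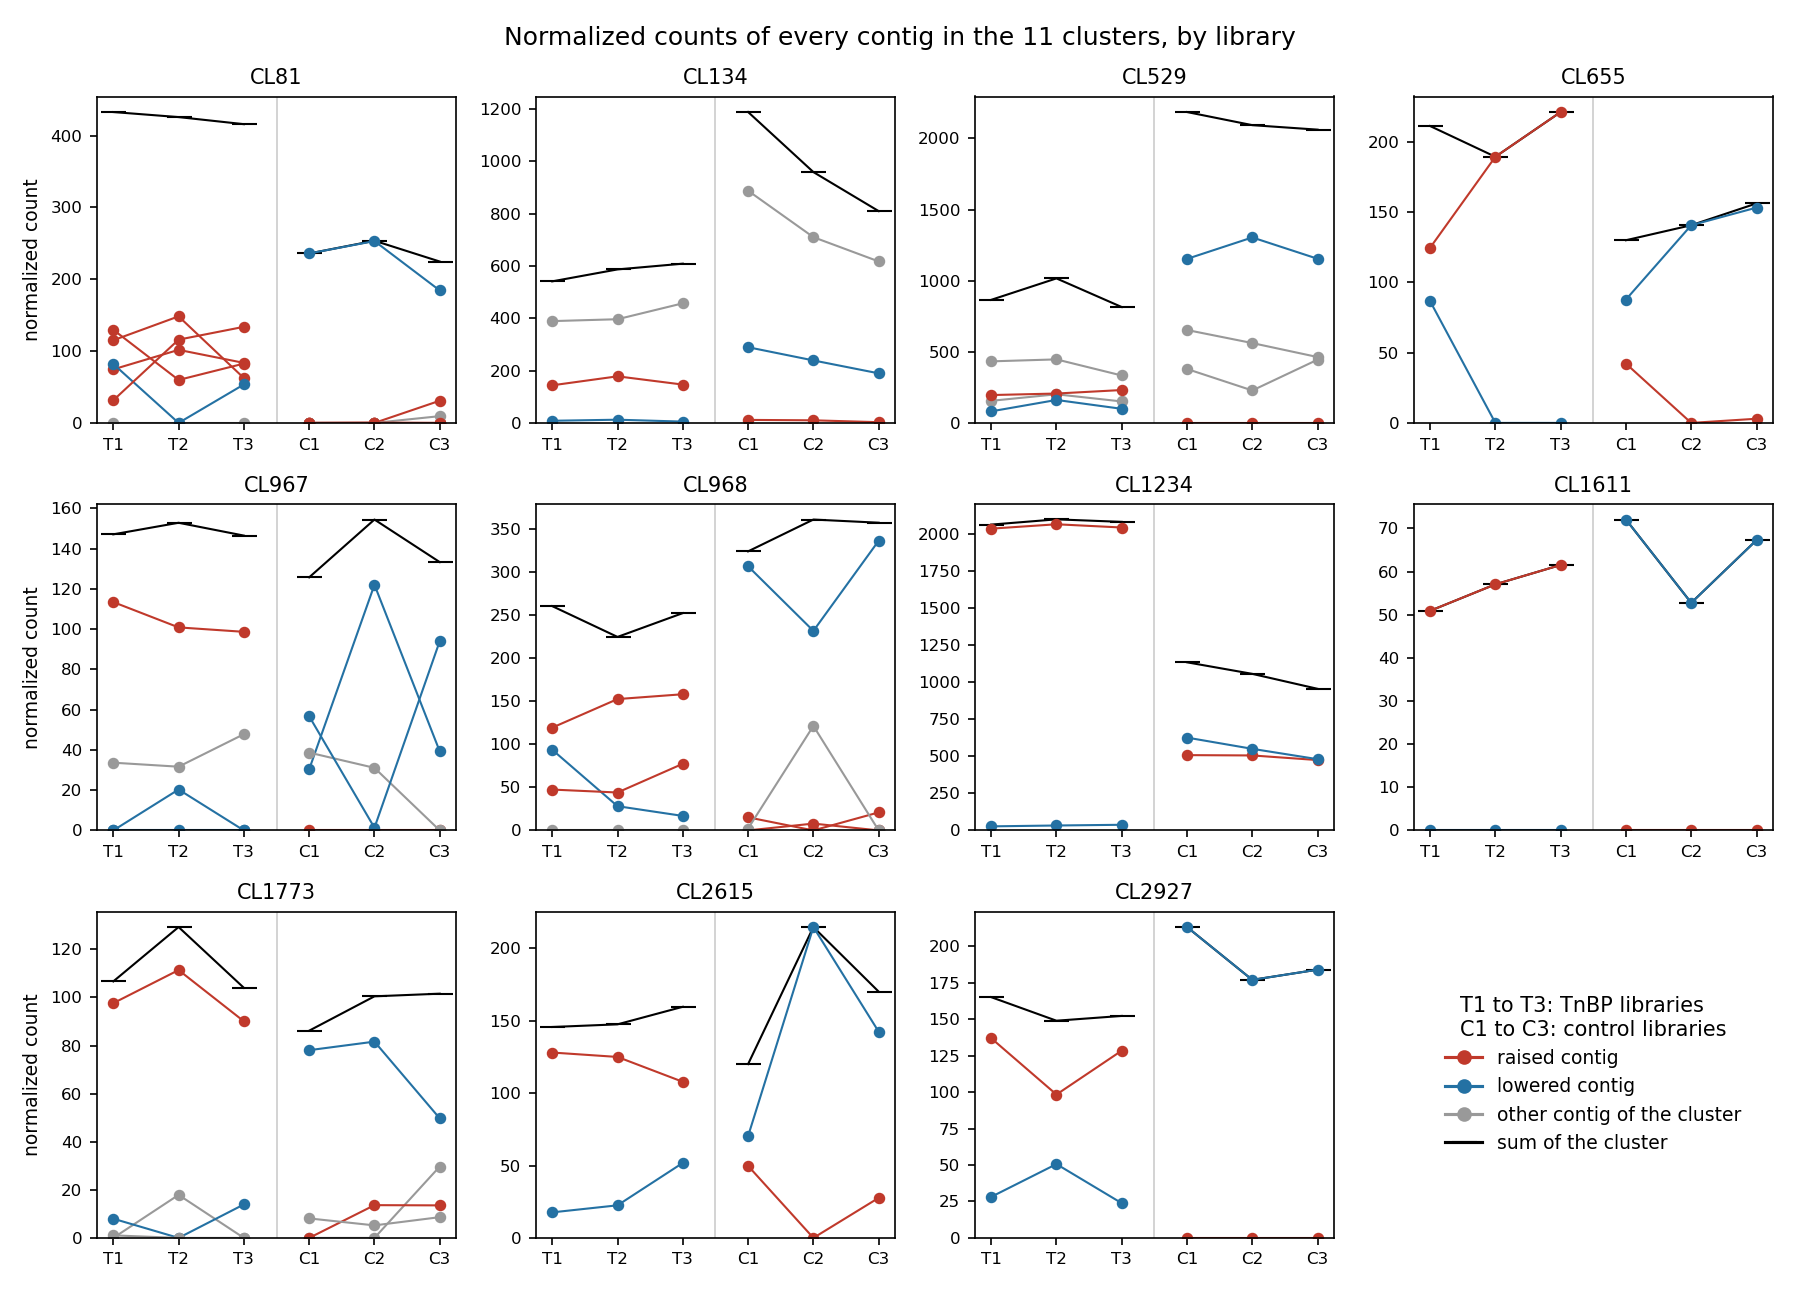
Normalized counts (vertical axis, linear, from 0) of every contig in each of the 11 clusters, for the 3 TnBP libraries (T1 to T3) and then the 3 control libraries (C1 to C3). Each point is 1 contig in 1 library, lines join points of the same contig within a group and imply no order, and black marks are the sum of the cluster. The red points of CL1611 stand at 50.9 to 61.5 in TnBP libraries and at 0 in control libraries, while its blue points do the reverse.

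The exchange was complete in CL1611, a cluster of 2 contigs of nearly the same length. CL1611.Contig2, 1037 bases long, had normalized counts of 50.9, 57.0 and 61.5 in the TnBP libraries, against 0 in every control library. CL1611.Contig1, 1052 bases long, had 0 in every TnBP library, against 72.1, 52.7 and 67.3 in the control libraries. Every TnBP library thus had reads assigned to Contig2 alone and every control library to Contig1 alone. The expected counts of both were whole numbers, 73, 75 and 84 for Contig2 in TnBP libraries and 51, 42 and 53 for Contig1 in control libraries, so no fraction of a read was assigned to either. Whether a read matched both contigs cannot be told from this. In CL655, described below, Contig1 had whole counts of 249 and 302 in TnBP replicates 2 and 3, where Contig2 was at 0. In TnBP replicate 1 both had reads, with fractional counts of 178.72 for Contig1 and 124.28 for Contig2. Against a floor of 3 counts per library, Contig2 was at least 14.3-fold higher and Contig1 at least 29.2-fold lower in TnBP; bounds of this kind cover counting error only. The sum of the cluster was 50.9, 57.0 and 61.5 in the TnBP libraries, against 72.1, 52.7 and 67.3 in the control libraries, and the groups overlapped.

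CL2927 was close to such an exchange. CL2927.Contig1 (1827 bases) had 137, 98.4 and 129 in the TnBP libraries, against 0 in every control library, at least 30.8-fold higher in TnBP. CL2927.Contig2 (1848 bases) had 28.2, 50.7 and 23.8 in the TnBP libraries, against 213, 177 and 184 in the control libraries, a log2 ratio of -2.48 ± 0.36 (TnBP over control, SE from the spread between libraries, n = 3 each). The raised contig was listed in no control library, whereas the lowered contig kept reads in every TnBP library. In the TnBP libraries, the one with the fewest reads of Contig1, replicate 2, had the most of Contig2. The cluster sum was 165, 149 and 152 in the TnBP libraries, against 213, 177 and 184 in the control libraries.

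In CL655, the cluster with the longest members, the reads of a library went mostly to 1 of the 2 contigs. CL655.Contig1 (3705 bases) had 125, 189 and 221 in the TnBP libraries, against 42.2, 0 and 2.97 in the control libraries. CL655.Contig2 (3765 bases) had 86.6, 0 and 0 in the TnBP libraries, against 87.8, 141 and 153 in the control libraries. The groups of Contig2 were separated only narrowly, by TnBP replicate 1 at 86.6 and control replicate 1 at 87.8, and these were the 2 libraries in which both contigs had substantial counts. The log2 ratios were 3.57 ± 1.32 for Contig1 and -2.14 ± 1.46 for Contig2 (SE, n = 3 each), and both rest on those libraries. Contig1 was 11.9-fold higher. Without control replicate 1 the other control libraries held 2.34 counts of it in all, and the ratio was 118 with a 95% Poisson interval of 35.7 to 777 for the counting error of those counts alone. Without TnBP replicate 1 Contig2 was at least 56.5-fold lower in place of 4.40-fold. Contig1 came to 7.82-fold without control replicate 2. Contig2 came to 2.92-fold without either TnBP replicate 2 or TnBP replicate 3, and to 3.98-fold without control replicate 3, all under the limit of 4. The sum of the pair was steadier, at 211, 189 and 221 in the TnBP libraries, against 130.0, 141 and 156 in the control libraries.

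In CL2615 both contigs had reads in both groups. CL2615.Contig1 (1046 bases) had 128, 125 and 108 in the TnBP libraries, against 49.7, 0 and 27.7 in the control libraries, a log2 ratio of 2.22 ± 0.81. CL2615.Contig2 (1063 bases) had 17.6, 22.5 and 51.8 in the TnBP libraries, against 70.3, 215 and 142 in the control libraries, a log2 ratio of -2.22 ± 0.66 (SE, n = 3 each). Control replicate 1 held both contigs, whereas control replicate 2 held Contig2 alone. Without control replicate 1 Contig1 was 8.58-fold higher, against 4.66-fold with all libraries and 3.08-fold without control replicate 2. Without TnBP replicate 3 Contig2 was 7.06-fold lower, against 4.65-fold with all libraries. It fell under the limit of 4, at 3.82-fold without TnBP replicate 1 and 3.51-fold without control replicate 2. The cluster was not selected in either case. The sum was 146, 148 and 159.7 in the TnBP libraries, against 120.1, 215 and 170.1 in the control libraries, with overlapping groups.

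CL1234 collected the most normalized counts of the 11 clusters in TnBP libraries and differed from the other pairs in length. CL1234.Contig1, 2233 bases long, had 2036, 2066 and 2044 in the TnBP libraries, against 508, 506 and 475 in the control libraries, a log2 ratio of 2.05 ± 0.03. CL1234.Contig2, 1467 bases long, had 27.4, 33.2 and 38.0 in the TnBP libraries, against 626, 551 and 481 in the control libraries, a log2 ratio of -4.07 ± 0.17 (SE, n = 3 each). Both contigs were well covered in control libraries, with 359.6 to 403 expected counts for Contig1 and 379 to 443 for Contig2. The gain of Contig1 was 2.99 times the loss of Contig2 in mean normalized counts, and the cluster sum was 2064, 2099 and 2082 in the TnBP libraries, against 1134, 1056 and 956 in the control libraries. Contig1 was also the raised member nearest to the limit, at 4.13-fold, and under TMM scaling it stood at 3.98-fold, just outside.

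One further contig, Contig1, carried most of CL134 in both groups. CL134.Contig3 (978 bases) had 144, 178 and 146 in the TnBP libraries, against 11.5, 9.92 and 2.82 in the control libraries, a log2 ratio of 4.27 ± 0.49. CL134.Contig2 (944 bases) had 8.21, 12.3 and 5.03 in the TnBP libraries, against 289, 239 and 189 in the control libraries, a log2 ratio of -4.81 ± 0.40 (SE, n = 3 each). These 2 contigs exchanged places as minor forms, and no library of either group came near the other group. CL134.Contig1, the longest of the cluster at 1631 bases, met neither set of conditions and had 389, 396 and 457 in the TnBP libraries, against 887, 709.8 and 617 in the control libraries. The cluster sum was 541, 587 and 608 in the TnBP libraries, against 1188, 958 and 809 in the control libraries, and the mean gain of Contig3 was 0.641 times the mean loss of Contig2.

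CL529 had the largest sum in control libraries, and 1 of its 4 contigs had no control reads. CL529.Contig2 (1284 bases) had 196, 207 and 231 in the TnBP libraries, against 0 in every control library, at least 53.6-fold higher in TnBP, the highest of the lower bounds among the members. CL529.Contig4 (1209 bases) had 81.3, 161 and 99.1 in the TnBP libraries, against 1153, 1304 and 1154 in the control libraries, a log2 ratio of -3.40 ± 0.31 (SE, n = 3 each). The gain of Contig2 was far smaller than the loss of Contig4, 0.194 times as large in mean normalized counts. Of the remaining contigs, CL529.Contig1 (1252 bases) had 155, 201 and 151 in the TnBP libraries, against 653, 561 and 463 in the control libraries. It was 3.31-fold lower in TnBP, which put it nearest to the limit among the lower contigs left out for their fold. CL529.Contig3 (1181 bases) had 433, 447 and 333 in the TnBP libraries, against 379, 228 and 445 in the control libraries, and its groups overlapped. The cluster sum was 865, 1016 and 815 in the TnBP libraries, against 2186, 2093 and 2062 in the control libraries.

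CL1773 was spread over 4 contigs with few reads. CL1773.Contig2 (1446 bases) had 97.6, 111 and 90.1 in the TnBP libraries, against 0, 13.6 and 13.5 in the control libraries, a log2 ratio of 3.46 ± 0.73. CL1773.Contig3 (1478 bases) had 7.99, 0 and 13.9 in the TnBP libraries, against 78.1, 81.6 and 49.7 in the control libraries, a log2 ratio of -3.26 ± 0.82 (SE, n = 3 each). Every TnBP library had more of Contig2 and every control library more of Contig3. Contig3 was 6.32-fold lower without TnBP replicate 2 and 17.4-fold lower without TnBP replicate 3, against 9.56-fold with all libraries, and Contig2 was 7.24-fold higher without control replicate 1, against 11.0-fold. CL1773.Contig1 (1503 bases) was above 0 in 1 library of each group, at 17.9 in TnBP replicate 2 and 29.7 in control replicate 3. CL1773.Contig4, 570 bases long, averaged 0.353 in TnBP and 7.32 in control libraries, below the floor of 50. The cluster sum was 107, 129 and 104 in the TnBP libraries, against 86.2, 100.5 and 102 in the control libraries, a log2 ratio of 0.24 ± 0.13.

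In CL967, 2 contigs were lowered and 1 was raised, all of similar length. CL967.Contig2 (1573 bases) had 113, 101 and 98.7 in the TnBP libraries, against 0 in every control library, at least 26.5-fold higher in TnBP. CL967.Contig1 (1540 bases) had 0, 20.3 and 0 in the TnBP libraries, against 30.3, 122 and 39.3 in the control libraries. CL967.Contig4 (1582 bases) had 0 in every TnBP library, against 56.7, 1.33 and 94.0 in the control libraries, at least 23.1-fold lower in TnBP. The 2 lowered contigs varied widely among control libraries and in opposite senses, with Contig1 highest in replicate 2, where Contig4 was at its lowest. Contig1 was 5.20-fold lower without control replicate 2, 6.25-fold without either TnBP replicate 1 or TnBP replicate 3, and at least 29.6-fold without TnBP replicate 2, against 9.43-fold with all libraries. The bound for Contig4 was 13.3-fold without control replicate 3 and 34.8-fold without control replicate 2. Contig4 met the rule narrowly, with a control mean of 50.7, just above the floor for the mean, and 1.06 expected counts in control replicate 2. Its control mean fell below that floor without TnBP replicate 1 (47.3), 2 (48.1) or 3 (47.8) and without control replicate 3 (30.8). It stayed above without control replicate 1 (51.9) or 2 (80.0). CL967.Contig3 (1615 bases), the fourth contig, had 33.7, 31.7 and 47.8 in the TnBP libraries, against 38.7, 31.1 and 0 in the control libraries. The cluster sum was 147, 153 and 146 in the TnBP libraries, against 126, 154 and 133 in the control libraries, so the groups overlapped and the mean gain of the raised contig was 0.968 times the summed mean loss of the lowered ones.

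CL968 showed the converse, 2 raised contigs and 1 lowered. CL968.Contig2 (2457 bases) had 119, 152 and 158 in the TnBP libraries, against 15.2, 0 and 20.9 in the control libraries. CL968.Contig3 (1953 bases) had 47.4, 44.0 and 77.3 in the TnBP libraries, against 0, 7.92 and 0 in the control libraries. CL968.Contig1 (2404 bases) had 93.5, 28.1 and 16.8 in the TnBP libraries, against 306, 231 and 336 in the control libraries. Contig1 kept its highest TnBP value in replicate 1, where Contig2 was at its lowest. The log2 ratios were 3.57 ± 0.76 for Contig2, 4.41 ± 1.47 for Contig3 and -2.66 ± 0.76 for Contig1 (SE, n = 3 each). Without TnBP replicate 1 Contig1 was 12.9-fold lower, against 6.31-fold. Contig2 was 7.85-fold higher without control replicate 2 and 18.8-fold without control replicate 3, against 11.9-fold. Contig3 had 6.31 counts in control replicate 2 and none in the other controls, so its 21.3-fold ratio has a 95% Poisson interval of 9.95 to 56.2 for the counting error of the control counts alone. It was 14.0-fold and 14.1-fold higher without control replicate 1 or 3 and at least 13.8-fold without control replicate 2. CL968.Contig4 (1903 bases) was at 0 in every TnBP library and at 2.16, 121 and 0 in the control libraries, so 1 library held nearly all of its reads and it stayed below the floor. The cluster sum was 260.0, 224 and 252 in the TnBP libraries, against 324, 360.4 and 357 in the control libraries.

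CL81 had the most members, 4 raised and 1 lowered among 6 contigs of 2808 to 2954 bases. CL81.Contig6 (2828 bases) had 82.0, 0 and 53.5 in the TnBP libraries, against 236, 253 and 184 in the control libraries, a log2 ratio of -2.31 ± 0.78 (SE, n = 3 each). This contig held 100%, 99.8% and 82.6% of the cluster per length in the control libraries. CL81.Contig1 (2850 bases) had 115, 148 and 62.4 in the TnBP libraries, against 0 in every control library. CL81.Contig2 (2830 bases) had 129.7, 59.8 and 82.6 in the TnBP libraries, against 0 in every control library. CL81.Contig7 (2808 bases) had 31.5, 116 and 134 in the TnBP libraries, against 0, 0.440 and 0 in the control libraries. These 3 contigs were at or under the floor of counts in controls and were higher in TnBP by at least 27.6-fold for Contig1, 23.0-fold for Contig2 and 23.8-fold for Contig7. CL81.Contig3 (2932 bases) had 74.6, 102 and 83.6 in the TnBP libraries, against 0, 0 and 30.9 in the control libraries, a log2 ratio of 3.07 ± 1.45. Reads of Contig3 in controls came from replicate 3 alone, and without that library it was at least 21.5-fold higher, against 8.41-fold with all libraries and 5.53-fold or 5.55-fold without control replicate 1 or 2. Contig6 was 8.35-fold lower without TnBP replicate 1, against 4.97-fold with all libraries. It was 3.29-fold lower without TnBP replicate 2, under the limit of 4. CL81.Contig5 (2954 bases) was listed in control replicate 3 alone, at 9.42. Single contigs of CL81 varied by several fold among TnBP libraries, while the cluster sum was 433, 426 and 416 in the TnBP libraries, against 236, 254 and 225 in the control libraries.

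Across the clusters, many members were absent from the group in which they were low. Of the 15 raised members, 6 were at 0 in all 3 control libraries, 7 in 1 or 2 of them and 2 in none. Of the 12 lowered members, 2 were at 0 in all 3 TnBP libraries, 4 in 1 or 2 and 6 in none. For the 8 raised members with at least 1 count in controls, log2 ratios ran from 2.05 to 4.41, and for the 10 such lowered members from -4.81 to -2.14. The other 9 members had lower bounds of 14.3-fold to 53.6-fold. With any 1 library left out, all 27 members kept their direction, which could hardly fail because the rule allowed no overlap between groups. The fold of 13 of them moved by over 1.5 times, as given above. The lowered member nearest to the limit was CL655.Contig2 at 4.40-fold, and the highest ratio among the higher contigs left out was that of CL967.Contig3, at 1.62-fold.

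Within each cluster, the share of reads per length was higher for the raised and lower for the lowered contigs in TnBP libraries. The rule largely set these directions, so the sizes of the shares are described. Normalized counts were divided by contig length in 1000 bases and expressed as a share of the cluster, a quantity that does not depend on how libraries are scaled. Averaged over the libraries of a group, raised members held 22.6% to 100% of their cluster in TnBP libraries, with a median over the 11 clusters of 82.2%, and between no counts at all and 37.3% in control libraries, with a median of 4.26%. Lowered members held a median of 10.7% in TnBP and 82.5% in control libraries. In 9 of the 11 clusters a raised contig had the highest level per length in each TnBP library and a lowered contig in each control library. The exceptions were CL134, in which Contig1 led in both groups, and CL529, in which Contig3 led in TnBP and Contig4 in control libraries. In CL529 the lowered share averaged 57.3% in control and 12.6% in TnBP libraries. Its contigs of neither kind averaged 42.7% in control and 64.8% in TnBP libraries, so the raised contig did not take up all of the lost share. The raised share of CL529 was 22.6% ± 4.01 in TnBP libraries (SD, n = 3), the lowest of the 11, with no counts in control libraries. In CL134 it was 37.7% ± 3.61 in TnBP and 1.11% ± 0.530 in control libraries, and in CL1234 97.6% ± 0.374 in TnBP and 37.3% ± 2.32 in control libraries (SD, n = 3 each). CL1234 had the highest mean raised share in control libraries, although control replicate 1 of CL2615 reached 41.8%. CL655 was the cluster whose raised share varied most among TnBP libraries, at 86.5% ± 23.5 in TnBP and 11.6% ± 18.4 in control libraries.

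**Figure D2:**
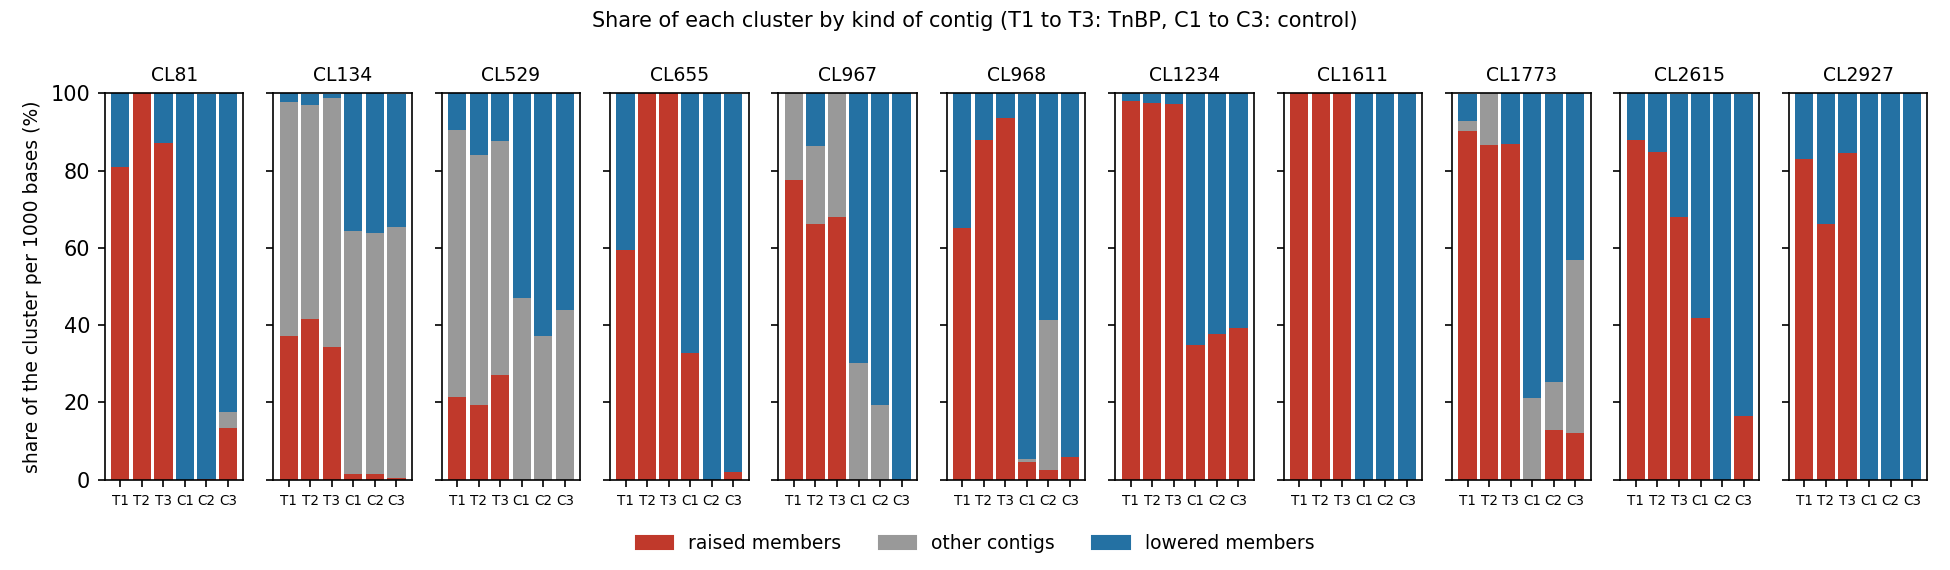
Share of each cluster (vertical axis, % of the cluster's normalized counts per 1000 bases) held by raised members, lowered members and other contigs, with 1 bar per library, TnBP (T1 to T3) before control (C1 to C3). Raised members fill the bars of CL1611 in TnBP libraries and are absent from them in control libraries, whereas other contigs make up 60.1% of CL134 in TnBP and 63.5% in control libraries on average.

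Summed over their contigs, the clusters differed less between groups than their members did, which follows largely from choosing clusters that hold both directions. The log2 ratios of the 11 cluster sums ran from -1.23 ± 0.10 in CL529 to 0.99 ± 0.07 in CL1234 (TnBP over control, SE, n = 3 each), with a median of -0.16 and a median absolute value of 0.50. The median absolute log2 ratio of the 18 members with a ratio was 3.25. The sum of CL529 averaged 899 ± 105 in TnBP and 2114 ± 64.3 in control libraries, and that of CL1234 averaged 2082 ± 17.7 in TnBP and 1049 ± 89.7 in control libraries (SD, n = 3 each). CL529 was the 1 cluster of 11 whose sum differed by at least 2-fold, against 35.7% of the 2082 clusters of 2 to 7 contigs whose sum reached a mean of 50. Since opposed members offset each other in a sum, nothing is read from that contrast or from the smaller ratios of the sums. Without TnBP replicate 1 or control replicate 1, CL1234 also reached 2-fold, and with library totals the 3 sums past 2-fold were those of CL81, CL655 and CL1234. The sums of 7 clusters lay within 1.5-fold.

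The sums of CL81, CL655, CL1234 and CL1773 were higher in every TnBP than in every control library, and those of CL134, CL529, CL968 and CL2927 were lower. Among all 2082 clusters, 45.4% had higher and 30.3% lower sums without overlap. The sums of CL967, CL1611 and CL2615 overlapped between groups. The scaling moved all the sums, since contigs present in all libraries had a median log2 ratio of -0.02 with size factors and 0.71 with library totals. Of the sums without overlap, those of CL968 and CL2927 changed direction with library totals, to log2 ratios of 0.23 and 0.43. With library totals 9 of the 11 sums were higher in TnBP, 8 of them without overlap, and CL529 and CL134 were the 2 that stayed lower, at log2 ratios of -0.51 and -0.04. With TMM factors 3 sums in place of 4 were higher without overlap, and without control replicate 2 the sum of CL2615 was higher in TnBP. Under TMM factors, library totals or deposited FPKM all 15 raised members were higher and all 12 lowered members lower in TnBP. This could hardly fail, since members were chosen at 4-fold or more and the scalings shifted ratios by much less. The selection itself did depend on scaling, as 10 of the original members in 5 original clusters were still chosen with library totals. With deposited FPKM, whose floor was matched by quantile, 6 original members in 3 original clusters were. The smallest fold was 6.85 for a raised and 2.57 for a lowered member with library totals.

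**Figure D3:**
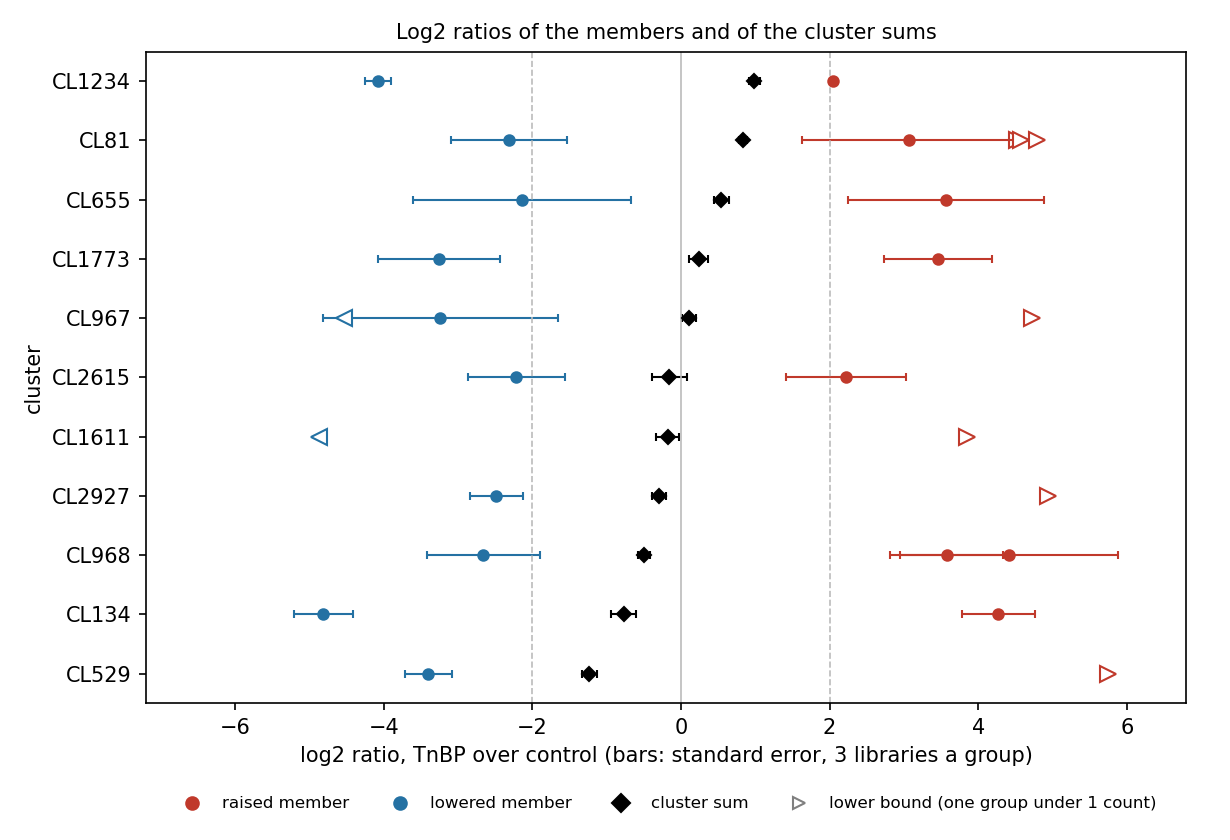
Log2 ratios of TnBP over control (horizontal axis) for raised members, lowered members and the sum of each cluster, ordered by the sum, with bars for the standard error over 3 libraries a group. Open triangles are lower bounds for members with under 1 count in a group, and dashed lines mark the 4-fold limit. The sums lie between -1.23 and 0.99, inside the members of every cluster, which follows largely from choosing clusters with both directions.

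A property that the rule did not use was length, and the opposed contigs of a cluster were mostly of nearly the same length. For the raised member highest in TnBP and the lowered member highest in control libraries, the shorter was at least 0.95 of the longer in 9 of 11 clusters, and the median ratio was 0.979. The differences in these clusters were between 15 bases, in CL1611, and 60 bases, in CL655. In CL529 the raised contig was 75 bases longer, and in CL1234 it was 766 bases longer, at a ratio of 0.657. Neither direction had the longer contig throughout, as the raised contig was longer in 6 clusters and shorter in 5. The pair of most abundant contigs had a median length ratio of 0.979 in the 11 clusters, 0.698 in 72 clusters with several raised and no lowered contigs, and 0.630 in 28 with several lowered and no raised contigs. In the 899 clusters outside the 11 that had at least 2 contigs at a mean of 50 or more, which include those sets, it was 0.830. These medians are given side by side and were not tested, because contigs are not replicates.

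**Figure D4:**
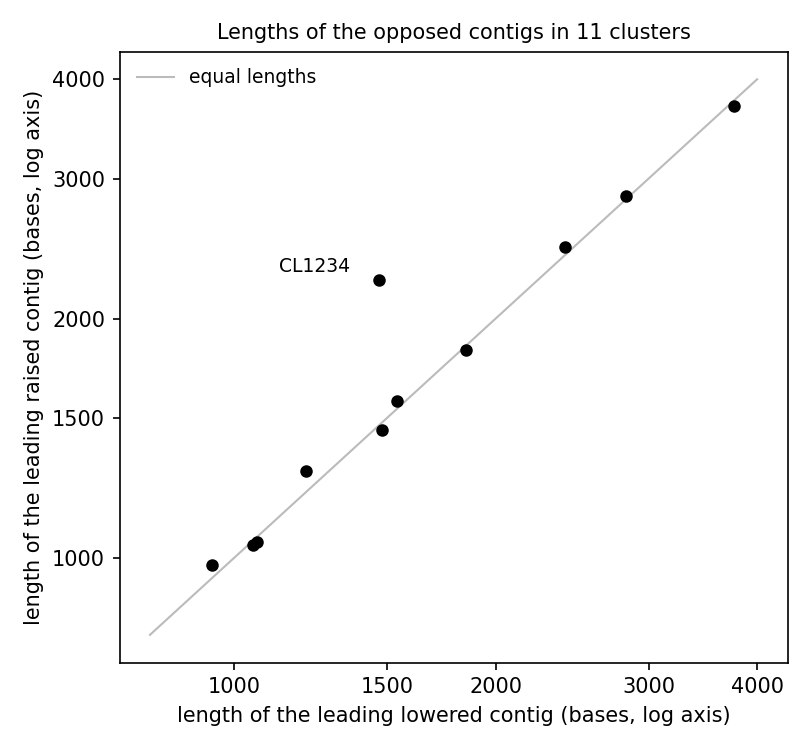
Length in bases of the leading raised contig (vertical, log axis) against that of the leading lowered contig (horizontal, log axis), 1 point for each of the 11 clusters, with a line of equal lengths. All points lie near the line except CL1234, at 2233 against 1467 bases.

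The counts carry a trace of how reads were divided. Of 154 values above 0 in the 35 contigs of the 11 clusters, 130 were not whole numbers within 0.03, or 84.4%, against 70.3% in the other clusters of 2 to 7 contigs and 7.24% in single unigenes. A fraction arises where a read was shared between contigs. In 51 of the 66 pairs of cluster and library some contig had a fraction, and in 37 of these, or 72.5%, the cluster sum was whole. In the other clusters of 2 to 7 contigs this share was 60.9%. CL967, CL968, CL655, CL2615, CL2927 and CL1773 had whole sums in all 6 libraries. CL967, for example, held 211, 201 and 200 counts in the TnBP libraries and 89, 123 and 105 in the control libraries, the 123 within rounding, although its contigs had fractions in every library. CL134 had no whole sum and CL1234 had 1, in control replicate 1. CL1611 had no fraction in any library. How far the division of reads between similar contigs moved the values of the members was not tested.

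Contigs also traded places between libraries of the same group, where treatment did not differ. In TnBP libraries 5 contigs of 4 clusters were at 0 in at least 1 library and at 10 or more in another, and in control libraries 8 contigs of 6 clusters were. The summed raised and summed lowered members deviated to opposite sides of their group mean in 35 of the 66 pairs of cluster and library, to the same side in 16, and 15 were undefined because 1 side was 0 throughout the group. In CL81, CL655 and CL2615 they did so in all 6 libraries. The coefficient of variation of the raised members among TnBP libraries had a median of 14.6% and reached 58.3%, in CL81.Contig7, against a median of 5.96% for the cluster sums. That of the lowered members among control libraries had a median of 19.7% and reached 92.0%, in CL967.Contig4, against 9.25% for the sums. A sum holds more counts than its contigs and tends to vary less even when they vary independently. Nothing is therefore read from these contrasts.

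The variance of a cluster sum within groups, divided by the summed variances of its contigs, is expected to be 1 when contigs vary independently and under 1 when they offset each other. It was 0.0294 in CL81, 0.0431 in CL967, 0.0656 in CL655 and 0.0739 in CL968. It was 1.41 in CL1234 and 1.62 in CL134, whose contigs varied together. CL1773, CL2615, CL529 and CL2927 lay between 0.284 and 0.447, and CL1611, with 1 contig present in each group, was at 1 by construction. A low ratio does not require that raised and lowered members offset each other. In CL967 the raised contig was at 0 in every control library, where the 2 lowered contigs varied in opposite senses. In CL968 raised and lowered members deviated to the same side in 4 libraries and to opposite sides in 2. Its Contig4, of neither kind, was at 121 in control replicate 2, where Contig1 had its lowest control value. The median ratio of the 11 was 0.365, beside 0.869 in the clusters with several raised contigs, 1.29 in those with several lowered contigs and 0.815 in all 899 clusters outside the 11 with at least 2 contigs at a mean of 50, all as descriptions.

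In a fit across all contigs, edgeR's quasi-likelihood test with Benjamini-Hochberg adjustment called 15 of the 15 raised members higher in TnBP, where 24.1% of 25353 tested contigs were called higher. It called 10 of the 11 lowered members that passed its filter on low counts, where 24.5% of tested contigs were called lower. The rule used the same contrast, so nothing is read from these counts. CL655.Contig2 was the tested member that was not called, and CL967.Contig4 was removed by the filter. Without control replicate 2 CL967.Contig1 was not called, and without TnBP replicate 1 CL655.Contig2 was. CL967.Contig4 passed the filter and was called without any one of the TnBP libraries or without control replicate 2. Of the 8 other contigs of the clusters 4 were tested and 2 were called, CL134.Contig1 and CL529.Contig1, both lower in TnBP.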

How the data were processed

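Libraries of pooled intestines were grouped by their treatment labels. Per the file headers, the authors deposited 1 table per library that lists each contig with its length, expected count and FPKM. The deposited expected counts are estimated counts per contig, not normalized and not all whole. FPKM in the deposited tables is scaled for length and depth, per the file headers. The submitters' processing notes list RSEM and Bowtie 0.12.2 with no settings, and mm8, a mouse build, although identifiers carry an Eisenia fetida suffix, which is left out of names here. The assembler, filters and use of strand are unstated. A contig missing from a table was set to 0.

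Size factors were medians of ratios over the 35181 contigs above 0 in all 6 tables. Expected counts were rounded for edgeR 4.0.16 (R 4.3.3, filterByExpr at 10 counts, TMM, adjusted p under 0.05), and the scripts were tested on simulated data. There edgeR's calls held a larger share of unchanged contigs than its adjusted p allows, so shares of contigs called serve as background only. Exact permutation of 3 against 3 libraries cannot go below p = 0.1, and none is given. All 11 clusters are described, since the rule named up to 12. Within groups, pairs of libraries had 2.67 to 3.4 times the chi-square of sampling alone, so none was counted as a copy. Members and lists were chosen with earlier results of these data known. Alternatives are given at the end.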

Additional observations from a re-analysis of the deposited data

How the results depend on the processing

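The 11 clusters and 27 members depended on the limits. A fold limit of 2 gave 53 clusters with 62 raised and 65 lowered contigs (127 in all), and a limit of 8 gave 5 clusters with 5 and 6 (11 in all). A floor of 25 gave 19 clusters with 23 and 20 contigs (43 in all), and a floor of 100 gave 8 raised contigs among 16. Deposited FPKM gave 5 clusters with 5 raised and 5 lowered contigs (10 in all), of which 6 were original members, and library totals gave 20 members, of which 10 were original. In no setting did an original member meet the conditions for the other direction, which their selection left hardly possible. Leaving out 1 library gave 21 to 34 members in 10 to 15 clusters, with 19 to 27 original members. The median log2 ratio of the sums, -0.16, was 0.57 with library totals and 0.59 with FPKM. Under both of these, contigs present in all libraries had a median log2 ratio of 0.71, and which scaling is right was not tested. With 1 library left out the median of the sums was -0.19 to 0.042, above 0 without control replicate 2. The sums of CL968 and CL2927 turned to 0.23 and 0.43 with library totals and to 0.25 and 0.45 with FPKM. Raised shares differed between groups by a median of 74.9 points, and by 70.6 to 75.5 points in the alternatives.

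Of the members, 25 were called by edgeR, 21 by DESeq2 1.42.0 and 21 to 27 over all alternatives; calls over all contigs numbered 12321, against 7243 with a filter at 5 CPM, 20695 with limma 3.58.1 on log2(FPKM + 1) and 18928 on log2(FPKM + 0.1). The replicate numbers were not read as pairs, because deviations of same-numbered libraries had correlations of -0.0032, 0.045 and -0.016. With the replicate block 11253 contigs and 25 members were called.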
